A study of Mus musculus with 6 samples.

Results

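The intermediate filament and lamin genes described here are 9 of the 46078 genes listed in the deposited count table, taken by gene name: the cytoplasmic filament genes *Des*, *Vim*, *Nes*, *Synm* and *Sync*, the linker gene *Plec*, and the lamin genes *Lmna*, *Lmnb1* and *Lmnb2*. RNA-seq was performed on differentiated C2C12 cells, an immortalized mouse myoblast line that fuses into myotubes when serum is withdrawn, after 2 days in differentiation medium. The 3 KO libraries came from C2C12 myoblasts in which the RNA-binding protein gene *Hnrnpa2b1* was targeted with CRISPR-Cas9, and the 3 WT libraries from *Hnrnpa2b1* WT C2C12 myoblasts. The methods describe clones of each genotype isolated with a cloning ring after puromycin selection. The sources used here do not state which clone gave which library, so the p-values measure only the spread between these libraries. The libraries are called KO1, KO2, KO3, WT1, WT2 and WT3 after their labels, and values for several libraries follow that order.

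Intermediate filaments are rope-like polymers that give cells mechanical strength. In muscle, vimentin and nestin predominate in myoblasts, desmin becomes the main filament protein as myotubes form and links Z-discs to each other and to the membrane, and plectin ties filaments to other structures. Lamins are the nuclear members of the same family. They line the inner nuclear membrane, where A-type lamins (from *Lmna*) are associated with differentiated tissues and B-type lamins (from *Lmnb1* and *Lmnb2*) are present in most cells.

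The count tables hold 33605258 to 40558740 reads on genes per library, and counts relative to the library total (CPM) were scaled with the trimmed mean of M-values (TMM). The targeted gene, *Hnrnpa2b1*, had 159, 195 and 249 CPM in KO1–KO3 and 225, 229 and 252 CPM in WT1–WT3. The genotypes overlapped, and its log2 fold change between KO and WT (log2FC, positive where KO is higher) was −0.23 (standard error, SE, 0.18, adjusted p = 0.381 in edgeR's quasi-likelihood test), so the RNA of the targeted gene does not tell the genotypes apart. Leaving out each library gave −0.41 to −0.09. In TPM it had 29.5, 38.0 and 59.9 in KO1–KO3 and 56.6, 57.4 and 58.0 in WT1–WT3, a log2 difference of −0.49 on the log2(TPM + 1) scale (adjusted p = 0.171, limma), with KO3 the highest of the 6 libraries. The methods describe a check of the protein in the clones by immunofluorescence and Western blotting, which is not analysed here, and KO and WT are used as the labels give them. The defining genes of muscle cells were present in every library, with 1005 to 1709 CPM of *Myog*. Of 8 myogenic markers, 3 (37.5%) were called, beside 22.7% of all tested genes (12.1% higher and 10.6% lower in KO). *Myod1* (0.99, adjusted p = 0.0141) and *Cdh15* (0.70, adjusted p = 0.0258) were called higher and *Myf5* (−1.50, adjusted p = 0.0303, edgeR) lower in KO, and each call was lost without WT1 (adjusted p = 0.0789, 0.130 and 0.0771) or without WT3 (0.0695, 0.0946 and 0.0781). The calls of *Cdh15* and *Myf5* were also lost without KO3 (0.0615 and 0.0786), that of *Myf5* without WT2 (0.0826), and that of *Cdh15* with the replicate block (0.0569). The endothelial, immune and epithelial marker lists summed to at most 3.47 CPM, with *Kdr* called lower in KO (−2.15, adjusted p = 0.0363, edgeR) at no more than 1.37 CPM, a call lost without KO3 or any WT library (0.0791 to 0.128). The fibroblast and adipogenic list summed to 26.4, 70.9 and 64.0 CPM in KO1–KO3 and 7.03 to 10.5 CPM in WT, with 3 of its 4 tested genes called higher in KO (*Dpt*, *Pi16* and *Pdgfra*), beside 12.1% of all tested genes, and *Dpp4* and *Adipoq* near 0. The call of *Dpt* held under every alternative in counts, whereas that of *Pi16* was lost without WT1 or WT3 (adjusted p = 0.0800 and 0.0734) and that of *Pdgfra* without KO3 or any WT library (0.0576 to 0.109, edgeR). In the neural list, *Tubb3* was called higher in KO, with 11.8 to 28.2 CPM against 1.94 to 3.15 CPM.

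RefSeq promoter windows (GRCm38.p6) were available for 7 of the 9 genes, all but *Plec* and *Lmnb1*. The 250 bases before the annotated start are shown for 4 of them, because they carry different numbers of E-boxes, the sequence CANNTG bound by myogenic factors such as MyoD and myogenin. Capitals mark the E-boxes on either strand; 66.2% of 32817 such windows hold at least 1. Each sequence runs 5′ to 3′ on the gene's strand, at chr1:75360042-75360291 (plus strand) for *Des*, chr4:129287371-129287620 (plus strand) for *Sync*, chr3:87970843-87971092 (plus strand) for *Nes* and chr10:80918246-80918495 (minus strand) for *Lmnb2*.
Des: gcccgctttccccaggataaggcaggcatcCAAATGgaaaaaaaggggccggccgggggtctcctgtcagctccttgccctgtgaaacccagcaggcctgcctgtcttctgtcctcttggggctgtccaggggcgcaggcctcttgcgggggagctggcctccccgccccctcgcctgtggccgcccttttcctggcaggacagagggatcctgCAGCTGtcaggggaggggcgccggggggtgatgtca
Sync: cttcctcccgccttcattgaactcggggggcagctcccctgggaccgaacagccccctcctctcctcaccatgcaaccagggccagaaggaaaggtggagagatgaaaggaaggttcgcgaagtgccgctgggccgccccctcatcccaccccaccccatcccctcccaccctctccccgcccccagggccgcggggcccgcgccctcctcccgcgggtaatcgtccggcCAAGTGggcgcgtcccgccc
Nes: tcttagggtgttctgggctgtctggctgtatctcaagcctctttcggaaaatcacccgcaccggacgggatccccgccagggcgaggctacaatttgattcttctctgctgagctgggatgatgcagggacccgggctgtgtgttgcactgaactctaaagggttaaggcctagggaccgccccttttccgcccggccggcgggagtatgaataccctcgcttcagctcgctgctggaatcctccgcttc
Lmnb2: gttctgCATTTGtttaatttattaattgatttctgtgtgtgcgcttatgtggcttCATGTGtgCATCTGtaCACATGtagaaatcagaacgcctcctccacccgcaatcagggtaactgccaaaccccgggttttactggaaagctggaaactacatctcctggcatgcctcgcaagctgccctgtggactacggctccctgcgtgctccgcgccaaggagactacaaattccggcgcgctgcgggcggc
The *Des* window held 2 E-boxes, *Sync* 1, *Nes* 0 and *Lmnb2* 4. A second RefSeq start of *Lmnb2* has a window with 1 E-box and 0 GC boxes (chr10:80906413-80906662, minus strand), which is not shown. The 2 E-boxes of *Des* read CAAATG and CAGCTG, 220 and 36 bases before the start. The GC box GGGCGG, on either strand, occurred 2 times in *Des*, 3 times in *Sync*, 2 times in *Nes* and 1 time in *Lmnb2*, and 32.7% of windows hold it. A CArG box or MEF2 site, which serum response factor and MEF2 proteins bind in many muscle genes, was found in none of the 4 (1.47% and 2.92% of windows hold them). The windows of *Vim* and *Synm*, which lie in annotated exons, and of *Lmna* are not shown. A missing match says only that these letters are not in this window.

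The question for the 9 genes was whether their RNA differed between KO and WT after 2 days of differentiation. None of the 9 was called at an adjusted p under 0.05 by edgeR, in a comparison that called 22.7% of the 14828 genes tested, 12.1% higher and 10.6% lower in KO. At an unadjusted p under 0.05 in edgeR there were 3 (*Synm*, *Sync* and *Lmna*), beside 5781 of the 14828 genes tested. DESeq2, run on the 30252 genes with a count in any library, called 4149 in all and 1 of the 9, *Synm*. At an unadjusted p under 0.05 in DESeq2 there were 2 of the 9. All 9 passed the filter on low counts. In TPM, a measure of transcript abundance corrected for length, 8 of the 9 passed the filter. Limma called 0 of these 8, where 20.5% of 11691 genes were called, 8.59% higher and 11.9% lower. At an unadjusted p under 0.05 in limma there was 1 of the 8. The numbers over all genes at that unadjusted p are not given here for DESeq2 and limma, so these counts have no background. The KO and WT libraries did not overlap in CPM for 4 of the 9 genes (44.4%), as for 44.3% of all tested genes. The median log2FC was 0.13 over the 9 genes, 5 positive and 4 negative, beside 0.03 over all tested genes.

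**Figure D1:**
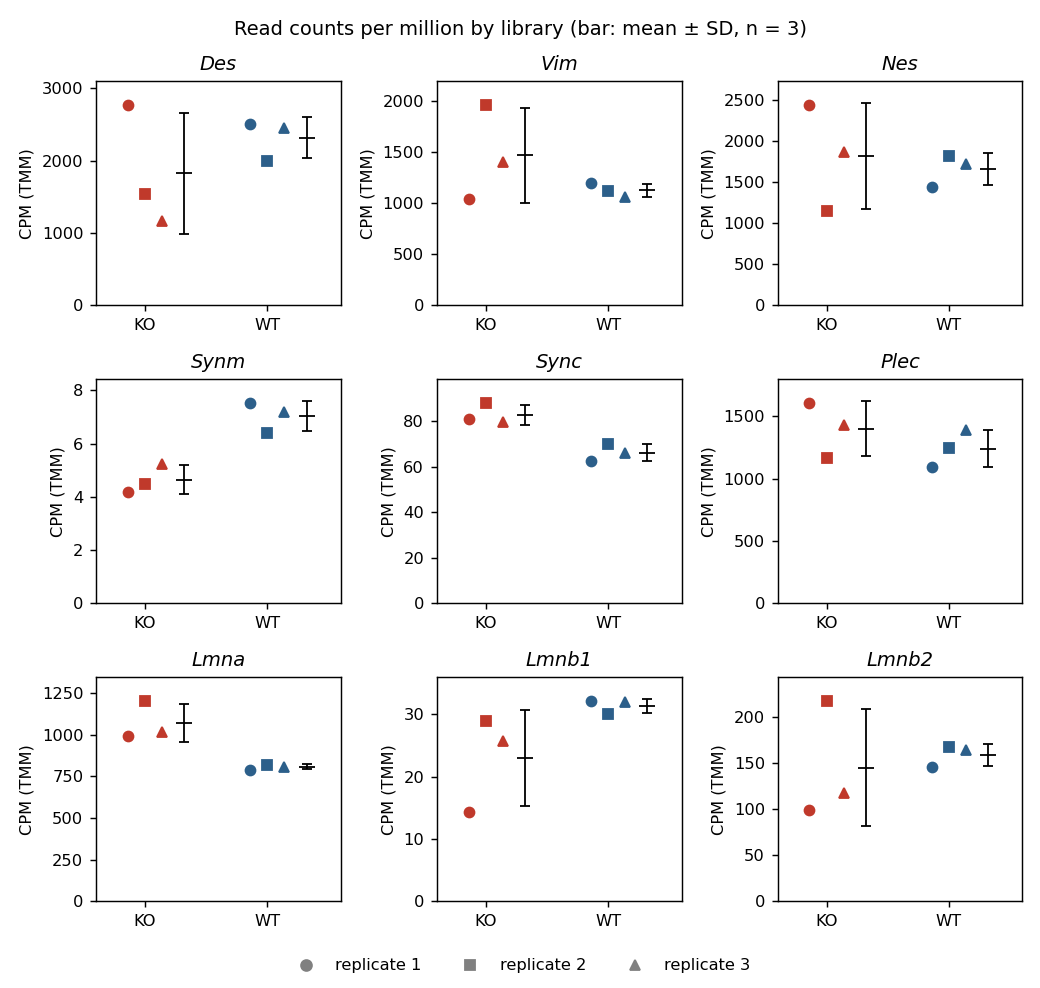
CPM of each gene in the 3 KO (red) and 3 WT (blue) libraries, with the mean and SD as a black bar (n = 3). KO and WT points are apart for *Synm*, *Sync*, *Lmna* and *Lmnb1* and overlap for the other 5 genes, with a wide spread between KO libraries for *Des*, *Vim*, *Nes* and *Lmnb2*.

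*Des* (ENSMUSG00000026208, chromosome 1, 75360329 to 75368579 on GRCm38, plus strand) encodes desmin, the muscle filament protein. It had 2769, 1541 and 1163 CPM in KO1, KO2 and KO3 and 2511, 1990 and 2447 CPM in WT1, WT2 and WT3. In CPM KO1 was the highest of all 6 libraries, whereas KO2 and KO3 lay below every WT library. In TPM WT1 (578) was above KO1 (566). The means were 1824 ± 840 CPM in KO and 2316 ± 284 CPM in WT (SD, n = 3), and the log2FC was −0.34 (SE 0.33, 95% interval −1.11 to 0.42, adjusted p = 0.474, edgeR). In counts *Des* was called only with KO1 left out, at a log2FC of −0.78 (adjusted p = 0.0340, edgeR, in a range of 0.0340 to 0.846 over the alternatives). That setting called 4712 genes in all in place of 3361. In TPM the log2 difference without KO1 was −0.71 on the log2(TPM + 1) scale (adjusted p = 0.0272, limma, in a range of 0.0272 to 0.526). In these bulk libraries fewer cells of a type and less RNA per cell cannot be told apart. Of 25 sarcomere genes, 5 were called lower in KO (beside 22.7% of all tested genes in either direction and 10.6% lower: *Tcap*, *Actn2*, *Mybpc1*, *Myl1* and *Myom2*), with a median log2FC of −0.89 over the list. The calls of *Tcap*, *Actn2* and *Mybpc1* held under every alternative in counts, whereas those of *Myl1* and *Myom2* were lost without KO2, KO3, WT1 or WT3, and that of *Myom2* also without WT2 (adjusted p = 0.0616 to 0.128, edgeR). In the summed sarcomere level KO1 was the KO library nearest to WT, with 41730 CPM in KO1, 17510 in KO2 and 23100 in KO3. The sums were 39310, 33540 and 42690 CPM in WT1–WT3. The median deviation of the list from the WT mean was −0.03, −1.42 and −1.75 on the log2 scale in KO1–KO3. Abundant genes weigh most in the sum, such as *Acta1* with 7023 CPM in KO1 and 2958 to 4188 CPM in WT. All 5 called genes were lower in KO1 than in every WT library. For example, *Actn2* had 63.6 CPM in KO1 and 269 to 480 CPM in WT. The part of these levels in the values of *Des* was not tested.

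*Vim* (ENSMUSG00000026728, chromosome 2, 13573927 to 13582826, plus strand) encodes vimentin, the filament protein of myoblasts and of mesenchymal cells. Its levels were 1038, 1962 and 1408 CPM in KO1–KO3 and 1195, 1122 and 1066 CPM in WT1–WT3. Here KO1 was the lowest of the 6 libraries and KO2 and KO3 the highest, the reverse of *Des*. With 1469 ± 465 CPM in KO and 1128 ± 64.7 CPM in WT (SD, n = 3), the log2FC was 0.38 (SE 0.25, 95% interval −0.20 to 0.96, adjusted p = 0.295, edgeR). Leaving out KO1 gave 0.57 in counts (adjusted p = 0.0675, edgeR, in a range of 0.0675 to 0.709 over the alternatives), which did not pass. In TPM it gave a log2 difference of 0.63 on the log2(TPM + 1) scale (adjusted p = 0.0454, limma), within a range of 0.0454 to 0.756 over the alternatives in TPM. The summed fibroblast and adipogenic markers were higher in all 3 KO libraries than in WT and, like *Vim*, lowest in KO1 and highest in KO2 among the KO libraries. Within the list, *Dpt* had that order (3.78, 56.3 and 35.0 CPM), while *Pi16* was highest in KO1 (15.8, 5.04 and 13.5 CPM). The median deviation of that list from the WT mean was 1.34, 1.11 and 2.01 on the log2 scale. The part of these markers in the *Vim* values was not tested.

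The level of *Des* relative to *Vim* was taken as the ratio of their TPM in each library. The ratio was 1.93, 0.572 and 0.603 in KO1–KO3 and 1.53, 1.30 and 1.67 in WT1–WT3. *Des* therefore exceeded *Vim* in KO1 and in every WT library, and *Vim* exceeded *Des* in KO2 and KO3. The log2 ratio averaged −0.20 ± 0.99 in KO and 0.58 ± 0.19 in WT (SD, n = 3), a difference of −0.77 that the spread between KO libraries exceeded (exact two-sided permutation test, p = 0.4; the smallest p that 3 against 3 allows is 0.1). Without KO1 the difference was −1.35.

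*Nes* (ENSMUSG00000004891, chromosome 3, 87971078 to 87980451, plus strand) encodes nestin, a filament protein of muscle and neural progenitors that copolymerizes with vimentin or desmin. The KO libraries spanned the WT range on either side, with 2442, 1155 and 1865 CPM in KO1–KO3 and 1447, 1826 and 1725 CPM in WT1–WT3. The log2FC was 0.13 (SE 0.29, 95% interval −0.54 to 0.79, adjusted p = 0.769, edgeR). Its direction rested on KO1, without which it was −0.15, and it was −0.047 relative to the median of the 135 tested genes within 5 Mb. Thus in CPM KO1 had the highest *Des* and *Nes* and the lowest *Vim*, and KO2 the lowest *Nes* and the highest *Vim* of the 6 libraries. In TPM this held except for *Des*, which was higher in WT1 (578) than in KO1 (566).

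*Synm* (ENSMUSG00000030554, chromosome 7, 67730161 to 67759742, minus strand) encodes synemin, a large filament protein that assembles with desmin or vimentin and binds costamere proteins. It was the lowest of the 9 genes, with 150 to 267 counts per library. Its levels were 4.20, 4.47 and 5.25 CPM in KO1–KO3 and 7.52, 6.40 and 7.20 CPM in WT1–WT3, so that every KO library lay below every WT library. The log2FC of −0.60 (SE 0.20, 95% interval −1.06 to −0.14) corresponds to a 1.52-fold lower level in KO. It missed the threshold in edgeR (unadjusted p = 0.0166, adjusted p = 0.0631) and passed it in DESeq2 (−0.63, adjusted p = 0.0323), and the adjusted p ranged from 0.0323 to 0.209 over the alternatives. The direction was kept in all of them. *Synm* was below the TPM filter, with 0.371 to 0.749 TPM.

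*Sync* (ENSMUSG00000001333, chromosome 4, 129287617 to 129308559, plus strand) encodes syncoilin, a muscle filament protein that binds desmin and α-dystrobrevin. The pattern was opposite to that of *Synm*: 80.8, 87.9 and 79.7 CPM in KO1–KO3, all above the 62.6, 70.1 and 66.0 CPM in WT1–WT3. The means of 82.8 ± 4.45 and 66.2 ± 3.76 CPM (SD, n = 3) gave a log2FC of 0.32 (SE 0.11, 95% interval 0.06 to 0.58, unadjusted p = 0.0213, adjusted p = 0.0741, edgeR). Scaling by library size alone gave 0.44 (adjusted p = 0.0404, edgeR), in a range of 0.0404 to 0.307 over the alternatives in counts and 0.0726 to 0.345 in TPM, but this scaling also moved the median of all tested genes from 0.03 to 0.15. *Sync* shares 782 exonic bases with *Rbbp4* on the opposite strand, whose counts were 294% of those of *Sync*. How strand was used in counting is not given in the sources used here, so the origin of reads in the shared bases cannot be told apart.

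*Plec* (ENSMUSG00000022565, chromosome 15, 76170974 to 76232574, minus strand) encodes plectin, the large cytolinker that anchors desmin to Z-discs, costameres, nuclei and mitochondria through different isoforms. It had 1607, 1168 and 1429 CPM in KO1–KO3 and 1093, 1243 and 1387 CPM in WT1–WT3, and the genotypes overlapped. The log2FC was 0.18 (SE 0.20, 95% interval −0.29 to 0.64, adjusted p = 0.552, edgeR). The gene-level counts do not separate the isoforms.

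**Figure D2:**
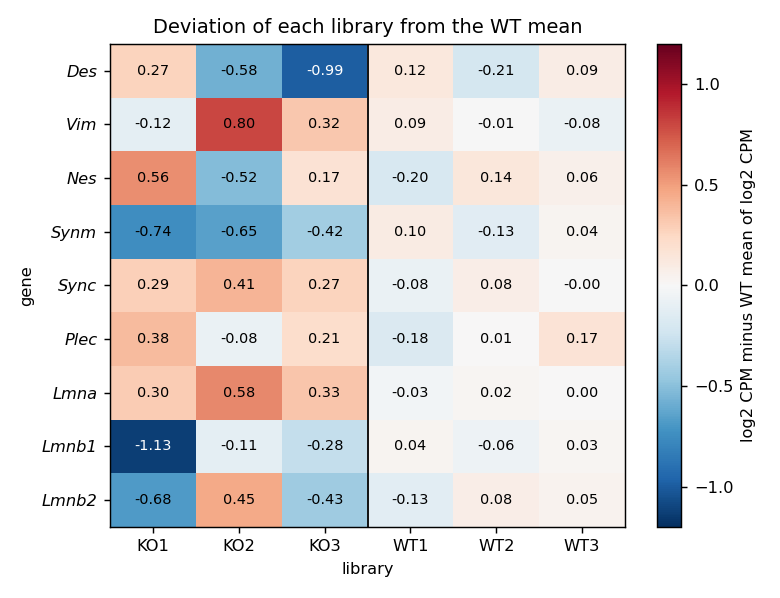
Log2 CPM of each gene (y axis) in each library (x axis) minus the mean of log2 CPM over the 3 WT libraries, with red above and blue below that mean. The WT columns stay within −0.21 and 0.17, whereas KO1 differs in sign from KO2 and KO3 for *Des* and *Vim*, and *Lmnb1* reaches −1.13 in KO1.

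*Lmna* (ENSMUSG00000028063, chromosome 3, 88480147 to 88509956, minus strand) encodes lamins A and C. Every KO library, with 993, 1202 and 1016 CPM in KO1–KO3, lay above every WT library, with 790, 820 and 809 CPM in WT1–WT3. The WT libraries differed little (806 ± 15.0 CPM) beside the KO libraries (1070 ± 115 CPM, SD, n = 3). The level in KO was 1.33-fold that in WT, a log2FC of 0.41 (SE 0.16, 95% interval 0.03 to 0.79) that did not pass the threshold (unadjusted p = 0.0376, adjusted p = 0.107, edgeR). Relative to the median of the 133 tested genes within 5 Mb it was 0.25, as those genes had a median log2FC of 0.15.

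*Lmnb1* (ENSMUSG00000024590, chromosome 18, 56707813 to 56753424, plus strand) encodes lamin B1, whose loss is a known mark of senescent cells. It had 14.3, 29.0 and 25.8 CPM in KO1–KO3 and 32.1, 30.1 and 31.9 CPM in WT1–WT3. KO2 lay just below the lowest WT library, and KO1 stood far below both KO2 and KO3. The log2FC was −0.45 (SE 0.25, 95% interval −1.01 to 0.12, adjusted p = 0.216, edgeR), and −0.20 without KO1. Of 18 cell cycle genes, 2 (11.1%, beside 22.7% of all tested genes and 12.1% higher) were called, *Rrm2* (log2FC 1.78, adjusted p = 0.00488) and *Mcm3* (1.10, adjusted p = 0.00644, edgeR), both higher in KO, and the summed level was 781, 974 and 969 CPM in KO1–KO3 and 540, 581 and 647 CPM in WT1–WT3. The median deviation of the list from the WT mean was −0.24, 0.68 and 0.54 on the log2 scale in KO1–KO3. KO1 was thus the lowest KO library for *Lmnb1* and for the median and sum of the cell cycle list. The 2 called genes did not have that order. *Rrm2* was highest in KO1 (307, 156 and 212 CPM in KO1–KO3) and held 307 of the 781 CPM summed there, beside 73.0, 52.9 and 70.9 CPM in WT1–WT3. *Mcm3* was about level, with 25.55, 25.42 and 25.53 CPM in KO1–KO3. The part of the cell cycle genes in the *Lmnb1* values was not tested.

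*Lmnb2* (ENSMUSG00000062075, chromosome 10, 80901203 to 80918245, minus strand) encodes lamin B2. Its values of 99.1, 217 and 118 CPM in KO1–KO3 lay on either side of the 145, 168 and 164 CPM in WT1–WT3. The log2FC was −0.14 (SE 0.28, 95% interval −0.78 to 0.50, adjusted p = 0.744, edgeR). Its direction depended on KO1, without which it was 0.071. In counts *Lmnb2* was called only with KO2 left out, at −0.55 (adjusted p = 0.0473, edgeR, in a range of 0.0473 to 0.995 over the alternatives). That setting called 2695 genes in all in place of 3361. In TPM the value without KO2 was −0.50 and did not pass (adjusted p = 0.129, limma).

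**Figure D3:**
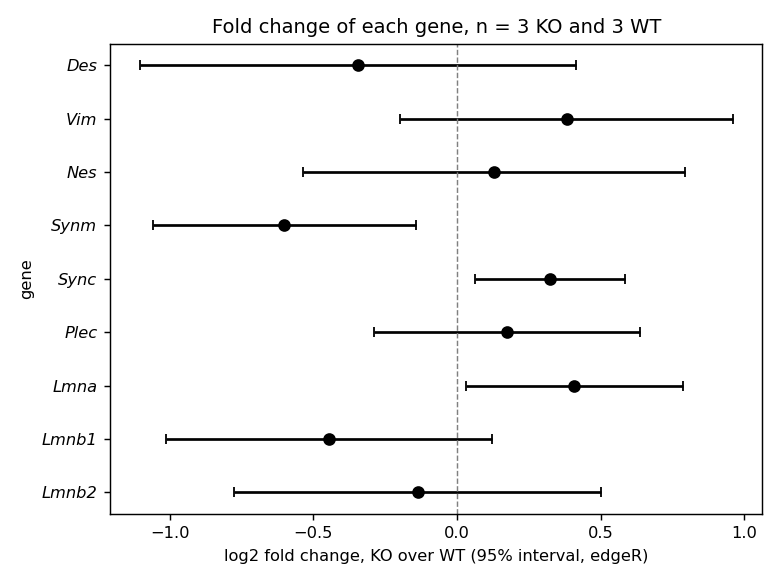
Log2FC of KO over WT (x axis) for each gene (y axis) with its 95% interval from edgeR, n = 3 libraries per genotype. The intervals of *Synm* (below 0), *Sync* and *Lmna* (above 0) exclude 0 before adjustment, and the other 6 include it.

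The ratio of A-type to B-type lamin RNA combined the 3 lamin genes in TPM. *Lmna* over the sum of *Lmnb1* and *Lmnb2* was 12.6, 6.89 and 9.57 in KO1–KO3 and 6.47, 6.03 and 5.86 in WT1–WT3. The ratio was higher in every KO library than in every WT library, on average 1.54-fold (log2 difference 0.62), and the genotypes did not overlap (exact two-sided permutation test, p = 0.1, the smallest that 3 against 3 allows). *Lmna* made up 90.2 ± 2.69% of the lamin TPM in KO and 85.9 ± 0.608% in WT, and *Lmnb1* 1.57 ± 0.456% and 2.66 ± 0.118% (SD, n = 3). *Lmnb2* held 6.28%, 10.9% and 7.53% in KO1–KO3 and 10.7% to 11.9% in WT, and overlapped.

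The 5 cytoplasmic filament genes together had 1141, 1079 and 1076 TPM in KO1–KO3 and 1148, 1079 and 1037 TPM in WT1–WT3. The sums differed by less than the spread within each genotype (1099 ± 36.8 and 1088 ± 56.1 TPM, SD, n = 3, exact two-sided permutation test, p = 1), while their makeup varied. *Des* took 49.6%, 31.0% and 27.9% of the sum in KO1–KO3 and 43.7% to 50.4% in WT. *Vim* took 25.7%, 54.2% and 46.3% in KO1–KO3 and 30.0% to 33.7% in WT. Neither share separated the genotypes, since KO1 lay with the WT libraries for *Des* and below them for *Vim*.

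**Figure D4:**
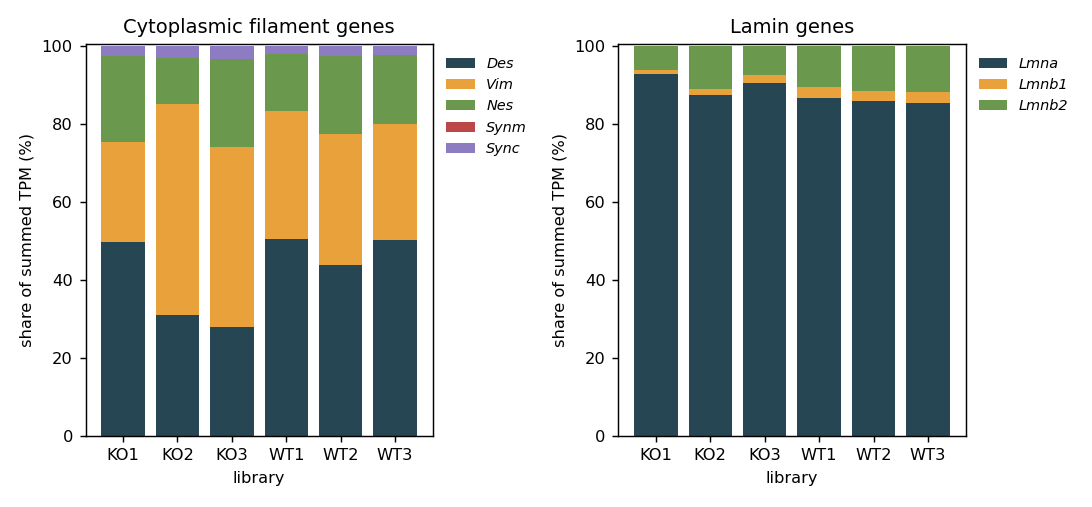
Share of the summed TPM (y axis, %) held by each cytoplasmic filament gene (left) and each lamin gene (right) in each library (x axis). *Vim* holds the largest share in KO2 (54.2%) and KO3 (46.3%) and *Des* in KO1 (49.6%) and in WT, and *Lmna* holds 85.4% to 92.7% of lamin TPM.

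Ordered by mean TPM, which allows genes to be compared per length, the WT libraries ran *Des* (523), *Vim* (351), *Lmna* (242), *Nes* (189), *Plec* (60.9), *Lmnb2* (32.1), *Sync* (25.1), *Lmnb1* (7.46) and *Synm* (0.672). No neighbouring pair in this order overlapped in its range over the 3 WT libraries. In KO the order was *Vim* (459), *Des* (401), *Lmna* (310), *Nes* (206), *Plec* (70.3), *Sync* (32.4), *Lmnb2* (29.1), *Lmnb1* (5.52) and *Synm* (0.438). The ranges of *Vim* and *Des*, of *Des* and *Lmna*, and of *Sync* and *Lmnb2* overlapped there. *Des*, *Vim*, *Lmna* and *Nes* lay above the 98th percentile of tested genes in TPM, and *Synm* at percentile 18.8.

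The spread between libraries differed by genotype. The SD of log2 CPM was larger in KO than in WT for 8 of the 9 genes (88.9%), beside 69.6% of all tested genes. For *Des* the coefficient of variation of CPM was 46.0% in KO and 12.3% in WT, for *Vim* 31.6% and 5.73%, and for *Lmnb2* 43.9% and 7.55%. *Sync* alone was not more variable in KO, at 5.37% and 5.67%. The difference was smaller for *Synm* (11.8% and 8.19%) and *Plec* (15.7% and 11.8%) than for *Des*, *Vim* and *Lmnb2*. Over all tested genes, the median ratio of the SD of log2 CPM in KO to that in WT was 1.5.

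The genes whose log2 CPM followed *Des*, *Vim*, *Nes* and *Lmna*, the 4 members with the highest TPM, most closely over the 6 libraries, among 5382 genes averaging 5 or more in log2 CPM, are given as a description. They share the libraries, their depth and their genotype with the member. For *Des* they were *Emc3* (Pearson's r = 0.992) and *Ehd4* (0.986), and for *Vim* *Taf12* (0.983) and *Tshz1* (0.977). For *Nes* they were *Snx19* (0.989) and *Cnnm4* (0.979), and for *Lmna* *Gypc* (0.997) and *Eml1* (0.994). Of these 8 genes, *Gypc* (log2FC 1.43, adjusted p = 0.0113) and *Eml1* (0.75, adjusted p = 0.0186, edgeR) were called higher in KO.

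Partner genes were described as 5 lists, each read against the 22.7% of all tested genes called by edgeR. Among the nuclear envelope partners of lamins, 10 of 22 genes were called (45.5%), 3 higher and 7 lower in KO, with a median log2FC of −0.25. *Mlip*, a muscle protein that interacts with lamin A/C, was at 0.168, 0 and 0 CPM in KO1–KO3 and 2.57, 1.46 and 3.94 CPM in WT1–WT3. Its fitted log2FC of −5.61 (adjusted p = 0.00856, edgeR) rests on near-zero KO counts. It was −9.66 without KO1, where the KO counts left were 0, and −5.00 without KO2. How far its size depends on the prior count was not tested. Of the 3 nesprin genes in the list, whose products couple the lamina to the cytoskeleton through SUN proteins, 1 was called lower, 1 higher and *Syne3* was not called (0.13, adjusted p = 0.667, edgeR). *Syne1* fell from 170, 153 and 142 CPM in WT1–WT3 to 83.1, 66.2 and 71.3 CPM in KO1–KO3 (log2FC −1.07, SE 0.14, adjusted p = 0.00313, edgeR). *Syne2* rose from 7.17, 9.17 and 9.27 CPM to 18.9, 32.2 and 30.4 CPM (1.67, SE 0.23, adjusted p = 0.00422, edgeR). *Lrif1* was also called higher (0.90, adjusted p = 0.0118, edgeR) but not without WT1 (adjusted p = 0.0669) or WT3 (0.0548). The count of 10 dropped to 3 without WT1 and to 3 without WT3, where the genes called in all fell from 3361 to 933 and to 1288. The calls of *Syne1*, *Syne2* and *Mlip* held under every alternative in counts. *Emd*, which encodes the lamin-binding protein emerin, had 47.3 to 56.0 CPM in KO and 50.1 to 54.7 CPM in WT.

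None of the 6 genes that farnesylate, methylate or cleave prelamins or bind them was called by edgeR. At an unadjusted p under 0.05 in edgeR there were 3 of the 6, beside 5781 of all 14828 tested genes. DESeq2 called 0, with 2 at an unadjusted p under 0.05, for which the number over all genes is not given here. The most abundant were *Narf*, with 68.8 to 97.2 CPM in KO and 92.9 to 136 CPM in WT (log2FC −0.54, adjusted p = 0.0741, edgeR), and *Fnta*, with 78.1 to 100.3 and 81.7 to 98.3 CPM (−0.04, adjusted p = 0.853, edgeR). *Zmpste24*, the protease that matures lamin A, had 67.2 to 78.5 CPM in KO and 51.0 to 62.6 CPM in WT (0.33, adjusted p = 0.109, edgeR). *Fntb* had 11.4 to 15.5 CPM in KO and 8.1 to 10.0 CPM in WT (0.51, adjusted p = 0.0796, edgeR). These were the 2 of the 6 genes whose KO and WT libraries did not overlap, beside 44.3% of all tested genes. Both were named after their values were seen.

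Of 16 tested desmin partners, 3 were called, all lower in KO (18.8%), with a median log2FC of −0.40. *Myot*, which encodes the Z-disc protein myotilin, fell from 25.8, 15.7 and 33.0 CPM in WT1–WT3 to 1.15, 1.28 and 0.317 CPM in KO1–KO3 (−4.76, SE 0.51, adjusted p = 0.00193, edgeR). *Dtna*, which encodes the syncoilin-binding protein α-dystrobrevin, fell from 224, 225 and 202 CPM to 38.1, 57.5 and 55.8 CPM (−2.11, SE 0.18, adjusted p = 0.000812, edgeR). The log2FC of *Sync* had the other sign (0.32), but *Sync* was not called (adjusted p = 0.0741, edgeR) and shares exonic bases with *Rbbp4*. *Capn1*, a calcium-dependent protease, fell by 1.23 on the log2 scale (adjusted p = 0.0116, edgeR), and the call was lost without WT1 (adjusted p = 0.0540). The small heat shock protein genes *Cryab* (−0.75, adjusted p = 0.0821) and *Hspb1* (−0.82, adjusted p = 0.0725), whose products chaperone desmin, did not pass in edgeR. Without KO1, 7 desmin partners were called in place of 3, and 4712 genes in all in place of 3361.

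Among 4 tested cytolinkers besides *Plec*, *Ppl* and *Fam83h* were called higher in KO (50%, beside 12.1% of all tested genes called higher). *Ppl*, which encodes periplakin, had 1.62, 29.3 and 10.9 CPM in KO1–KO3 and 0.260 to 0.647 CPM in WT (log2FC 4.89, SE 0.99, adjusted p = 0.0137, edgeR). Without KO2 it was 3.75, and the call was lost without WT1 (adjusted p = 0.0703) or WT3 (0.0550). *Fam83h*, linked to keratin filament organization, had 31.0, 18.9 and 20.4 CPM in KO1–KO3 and 6.22 to 7.75 CPM in WT (1.74, SE 0.23, adjusted p = 0.00316, edgeR). *Macf1*, the most abundant of the list, had 747 to 1950 CPM in KO and 997 to 1524 CPM in WT. The count of 2 dropped to 1 without WT1 or without WT3, where 933 and 1288 genes in all were called in place of 3361.

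Of 20 other intermediate filament genes, 6 were tested and 2 were called, both keratins and both higher in KO. That is 33.3%, beside 22.7% of all tested genes called and 12.1% called higher. The median log2FC of the 6 was −0.005, with 3 positive and 3 negative. The tested keratins *Krt7* (−0.89, adjusted p = 0.214) and *Krt10* (0.05, adjusted p = 0.897, edgeR) were not called. *Krt80* had 42.0, 2.08 and 4.96 CPM in KO1–KO3 and 1.02 to 1.49 CPM in WT (log2FC 3.63, SE 1.05, adjusted p = 0.0423, edgeR), and 1.41 without KO1. *Krt14* had 3.61, 0.687 and 2.73 CPM in KO1–KO3 and 0.0868 to 0.458 CPM in WT (2.88, SE 0.74, adjusted p = 0.0299, edgeR). The calls of *Krt80* were lost without WT1, WT2 or WT3 in turn (adjusted p = 0.137, 0.102 and 0.136), and those of *Krt14* without KO3, WT1, WT2 or WT3 (0.0742, 0.0999, 0.0711 and 0.0786). Both calls were also lost with the replicate block, at 2.55 for *Krt80* (adjusted p = 0.0826) and 2.71 for *Krt14* (0.0675, edgeR). The glial, neuronal and lens filament genes *Gfap*, *Prph*, *Ina*, *Nefl*, *Nefm*, *Nefh*, *Bfsp1* and *Bfsp2* stayed under 1 CPM in every library.

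**Figure D5:**
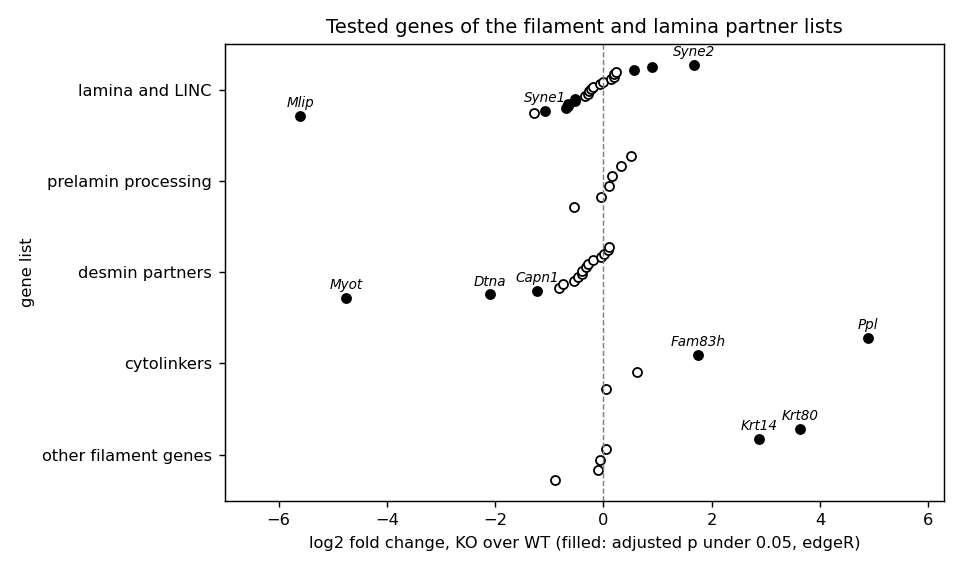
Log2FC of KO over WT (x axis) for each tested gene of the 5 partner lists (y axis), filled where the adjusted p was under 0.05 in edgeR. Called genes past 1 in size are named; the lamina and LINC list holds 10 filled points of 22 and the prelamin processing list 0 of 6.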

How the data were processed

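RNA-seq libraries of differentiated C2C12 cells, 3 KO and 3 WT, were grouped by their titles. Per the labels, the reads were processed with FastQC, Trim Galore, STAR, featureCounts, StringTie and Salmon. The authors deposited read counts per gene without normalization, all 6 columns of which were used and 0 left unused, and a table for each library with TPM, FPKM and coverage. The deposited TPM values were used as a second measure, and the deposited FPKM values only as an alternative for ratios. The methods name GRCm39 and the labels mm9, while the deposited gene coordinates fit GRCm38, which is used here. The version of the counter and its use of strand are not given in the sources used here.

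The 9 genes and all lists were chosen with earlier results of these data known. Counts were scaled by TMM, filtered with filterByExpr and tested two-sided with edgeR 4.0.16 in R 4.3.3 (quasi-likelihood, Benjamini-Hochberg over 14828 genes, threshold 0.05). TPM was tested with limma 3.58.1 on log2(TPM + 1) over genes with at least 1 TPM in at least 3 libraries. Alternatives were DESeq2 1.42.0, other scaling, other filters, a pseudocount of 0.1, a replicate block, changes relative to genes within 5 Mb and leaving out each library. The steps were run on simulated counts with the same spread in both genotypes and larger changes than those of the 9 genes. That run does not cover changes as small as theirs or the wider spread in KO.

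Named genes were the 9 genes and *Hnrnpa2b1*, from each list up to 4 called genes with the largest change or, where 0 were called, the 2 most abundant, and for *Des*, *Vim*, *Nes* and *Lmna* the 2 genes most correlated with them. *Myog*, *Acta1*, *Myom2*, *Syne3*, *Emd*, *Macf1*, *Cryab*, *Hspb1*, *Zmpste24*, *Fntb*, *Krt7*, *Krt10* and the genes listed near 0 were named after their values were seen. No library repeated another of its genotype (chi-square per degree of freedom 50.1 to 189 within genotypes). The gene *Eppk1* was not analysed here. Protein sequences, splicing and other data types were not analysed here.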

Additional observations from a re-analysis of the deposited data

How the results depend on the processing

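Of 108 tests of single genes under other settings in counts, 102 kept their direction and side of the threshold, as did 66 of 72 in TPM. The untested values relative to genes within 5 Mb kept the sign for 8 of the 9 genes, but *Nes* turned to −0.047. The log2FC of *Nes* turned without KO1 (−0.15 in counts, −0.11 in TPM) and, in TPM, without KO3 (−0.074) and without WT1 (−0.0084), and reached 0.37 in counts and 0.39 in TPM without KO2. That of *Lmnb2* turned without KO1 (0.071 in counts, 0.070 in TPM) and was lowest without KO2 (−0.55 and −0.50). The number of the 9 genes called was 1 with DESeq2 (*Synm*), 1 with library size alone (*Sync*), 0 to 1 with each library left out and, in TPM, 0 to 2. The genes called in all ranged from 933 (without WT1) to 4712 (without KO1). Testing every gene with a count called 4538 genes in all, among them 4 other filament genes, 6 desmin partners and 1 prelamin gene. DESeq2 called 4149, with 5 desmin partners. Library size alone called 3469, with 1 prelamin gene, and a filter of 1 CPM called 3231, with 1 other filament gene. Leaving out each library gave 0 to 3 other filament genes, 1 to 3 cytolinkers, 2 to 7 desmin partners, 3 to 11 lamina genes and 0 to 1 prelamin genes; apart from fewer libraries and other gene filters, the cause was not tested. The ratio of *Des* to *Vim* ranged from −1.35 to −0.47 and that of *Lmna* to B-type lamins from 0.41 to 0.85 (log2).

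Replicate numbers did not pair the samples: deviations of same-numbered libraries correlated at 0.137, −0.116 and 0.00413. With the replicate block, 2520 genes and 0 of the 9 genes were called, *Des* was at −0.43 and *Lmna* at 0.40, and 0 other filament genes, 2 cytolinkers, 4 desmin partners, 7 lamina genes and 0 prelamin genes were called. With 3 libraries per genotype, intervals of the 9 genes reached up to 1.11 from 0 on the log2 scale, and the fewest counts behind a value of these genes were 150 (*Synm* in KO1).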
